A study of Caenorhabditis elegans with 609 samples.

Results

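The 78 genes described here are named for proteins of the cytosolic ribosome of *Caenorhabditis elegans*. They were chosen by name as every gene whose Ensembl WBcel235 name begins with rpl- or rps-, and they are 78 of the 46920 genes with at least 1 transcript in the expression tables and 78 of the 16260 genes with a reliably expressed transcript. The 47 rpl- genes are named for proteins of the large (60S) subunit and the 31 rps- genes for proteins of the small (40S) subunit. Some of them are copies with the same number. Genes for ribosomal proteins that carry other names, such as the stalk proteins rla-0, rla-1 and rla-2, are outside this rule and are compared with it. Of the 78 genes, 23 lie on chromosome I, 10 on II, 18 on III, 17 on IV, 8 on V and 2, rpl-11.2 and rpl-25.1, on X.

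The aim of the study was to relate differences in expression to genetic variation. Young adult hermaphrodites of 207 wild strains were collected whole, and their poly(A) RNA was sequenced. Each strain was one group, defined by its strain name alone, without any drug or transgene, and the samples were independently grown cultures kept at 20 °C on agar plates with the *Escherichia coli* strain OP50. Animals were synchronised as embryos from bleached adults and collected once the first embryo was seen on the plate. The study reports that the age at this event varied among strains, so strains differ in age at harvest. There were 3 cultures for 194 strains and 2 for 13, and the 559 cultures that lay close to the others of their strain were used, 3 for each of 145 strains and 2 for each of 62. Their total estimated counts, over all samples before this selection, ran from 15461168 to 280262722 with a median of 28772489, and 31 of the 559 libraries held more than 10% of their TPM in ribosomal RNA. The kept cultures carried 14 different pool labels, of which 6 join 2 pool numbers, hold 2 to 8 cultures each and are not explained in the labels. The labels give the earlier of 2 years for 385 of the kept cultures and the later for 174.

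Ribosomal proteins assemble with ribosomal RNA into the particle that translates every cytosolic protein, and each of them is built into a subunit in a fixed proportion. Because an imbalance among them leaves unassembled protein, their genes are known in many organisms for high and coordinated expression, which is tied to growth rate and nutrient supply. The germ line makes up a large part of a young adult hermaphrodite, and its oocytes are supplied with ribosomes for the embryo.

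All 78 genes were read at a level, and most stood among the most abundant transcripts of the animal. A level is given here as log2 of normalized TPM plus 0.5, where TPM is the share of a transcript among all transcripts after correction for length, scaled to a fixed total. The mean level over strains had a median of 11.48 over the 78 genes, 66 of them lay within a factor of 2 of that median, and 67 were among the 100 genes with the highest mean level of all. The highest of all genes was rpl-41.2, at 13.03. In N2, the laboratory reference strain, its 3 cultures held 7670, 7834 and 8504 normalized TPM. The next in the family were rpl-43, which encodes a zinc-binding protein of the 60S subunit, at 12.81, rpl-36 at 12.45, rpl-38 at 12.42 and rpl-39, whose protein lines the exit tunnel for the nascent chain, at 12.33. These 5 genes are short, between 236 and 347 nt in their longest annotated transcript.

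**Figure D1:**
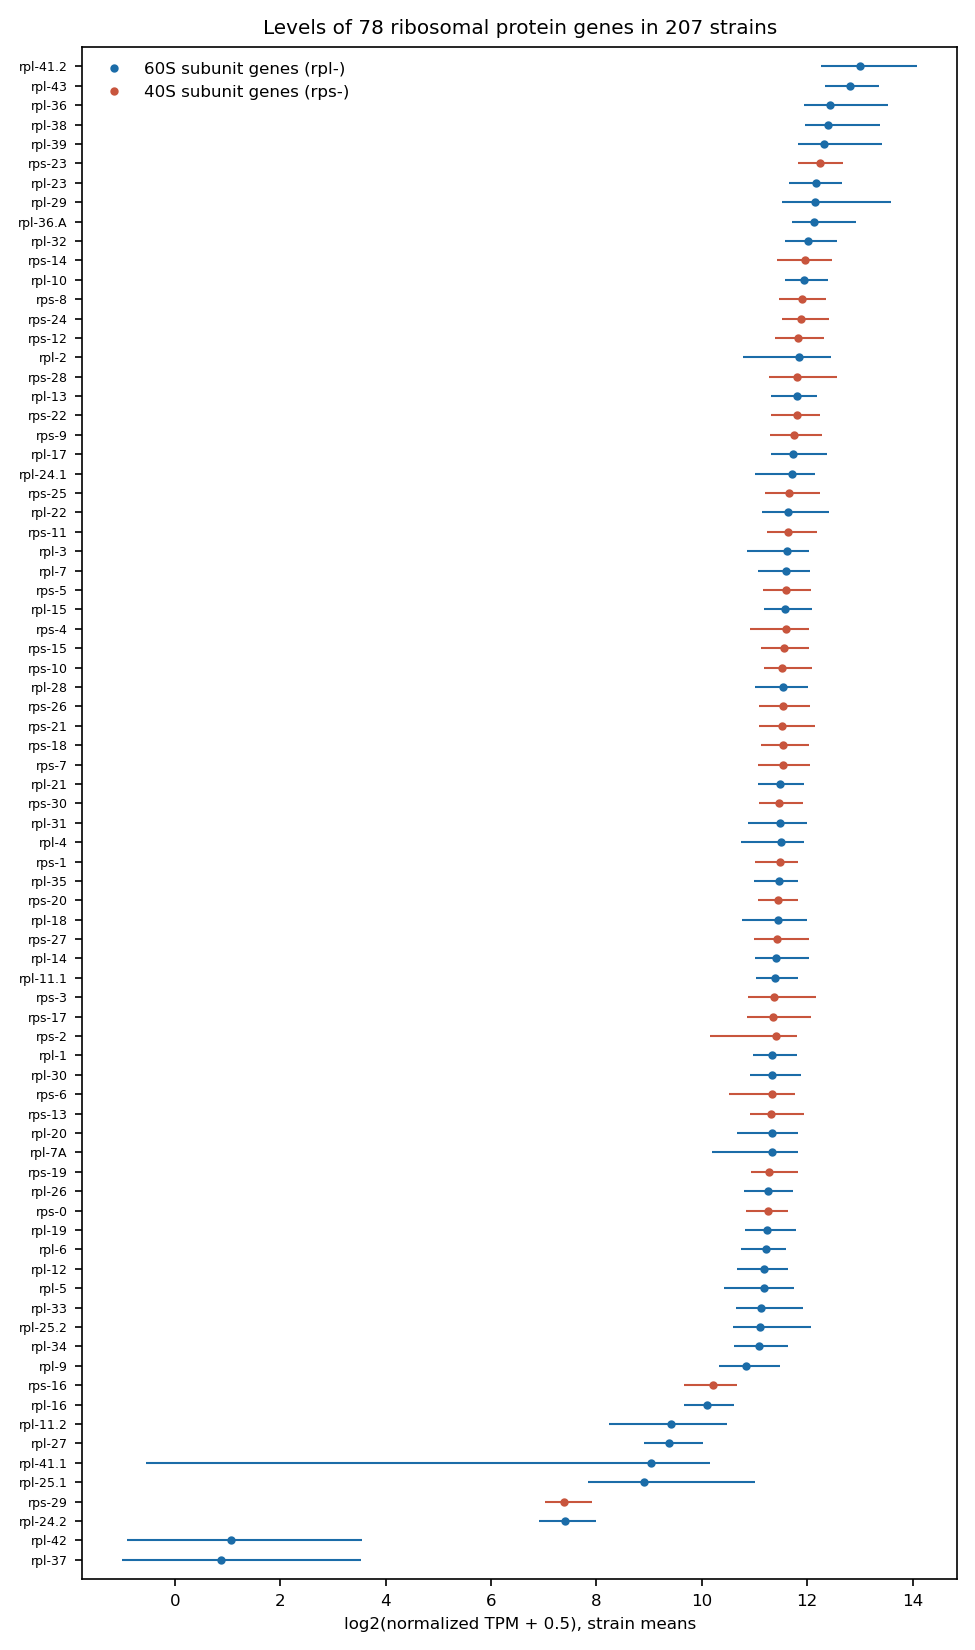
Median level of each of the 78 genes (points; 60S and 40S genes in different colours) and the range (lines) over 207 strain means, as log2 of normalized TPM plus 0.5, ordered by mean level. Most genes sit in a narrow band near 11.48, while rpl-37 and rpl-42 lie near the bottom of the scale and the line of rpl-41.1 reaches down to -0.55.

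At the other end, 8 genes had a mean level below 10. The lowest were rpl-37 at 0.84 and rpl-42 at 1.11, followed by rpl-24.2 at 7.39, rps-29 at 7.397 and rpl-25.1 at 8.91. The gene rpl-24.2 is the counterpart of the yeast and human factor that holds the place of a 60S protein during subunit assembly. It held 161, 165 and 187 normalized TPM in the 3 cultures of N2, which is far below rpl-24.1 at a mean level of 11.69.

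For rps-29, a zinc-binding protein of the 40S subunit, the low level per length went with a long transcript model. The ratio of counts to TPM, calibrated on 1837 reference transcripts, implied a length of 3721 nt for rps-29, against 265 nt for its longest transcript in the Ensembl annotation. Its median estimated count of 17504 placed it 222nd of all genes by count and 770th by TPM. The same held for rpl-27, with 2201 nt implied and 461 nt annotated, for rps-16 with 1633 and 480 nt, and for rpl-16 with 1351 and 665 nt. In the other low genes the implied and the annotated length were close, so that rpl-37 was low by count as well, with a median of 5.16 estimated counts per culture, and rpl-42 had a median of 27. Differences among strains are not affected by a length shared by all strains, but the order of levels among genes is.

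The 2 lowest genes varied widely in relative terms while remaining near the limit of detection. The strain means of rpl-42 ran from 0.0401 normalized TPM in NIC515 to 11.22 in NIC523, with a median of 1.69, and 15 of the 559 cultures were at 0. The 3 cultures of NIC523 held 10.3, 12.8 and 10.6 normalized TPM of rpl-42 and those of CB4856, a strain from Hawaii that is widely used as a contrast to N2, held 0.168, 0.185 and 0.0655. The 2 sets did not overlap, but NIC523 was picked as the highest strain, so this is no test. In rpl-37, named for a zinc-binding protein of the 60S subunit, 52 cultures were at 0, among them all cultures of 5 strains. Its highest strain was ECA363, with 7.79, 12.7 and 13.9 normalized TPM. Whether genes outside the naming rule encode the same protein was not examined, so a low rpl-37 need not mean little RNA for that protein.

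The family as a whole differed among strains over a narrow range. The median of the 78 levels within a strain ran from 11.06 in NIC501 to 11.94 in JU2234, with a median strain at 11.50, which is a 1.84-fold range. Of the 207 strains, 180 lay within 0.25 of the median strain and all lay within 0.5. In such bulk samples a smaller share of one kind of cell and less RNA of these genes per cell cannot be told apart. The cultures of JU2234 had family medians of 11.52, 12.11 and 12.13, and those of NIC501 had 10.82, 11.07 and 11.32. The 2 strains did not overlap, but they were picked as the ends of this same range, so this is no test. Within each of them the lowest and the highest culture differed by more than 0.25.

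The extremes were shared by many genes of the family. JU2234 was the highest strain for 27 of the 78 genes, JT11398 for 16 and JU2838 for 11, while MY2147 was the lowest for 15, NIC501 for 13 and NIC199 and NIC261 for 9 each. In JU2838, with 2 kept cultures, 78 of 78 genes were above their median over strains. In NIC501, and in NIC199 with 2 kept cultures, none were. Such counts over other genes are not given here, so none of these counts sets the family apart. N2 had 16 of 78 genes above the median over strains, with family medians of 11.51, 11.34 and 11.36 in its cultures, and stood 140th of 207. CB4856 had 2 of 78 above, with family medians of 11.51, 11.30 and 11.17, and stood 166th, so that its 3 cultures overlapped those of N2.

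Differences among strains were found for every gene of the family, which does not distinguish it from other genes, since nearly every gene passed the same test. In edgeR's F-test (quasi-likelihood) of all strain coefficients, with Benjamini-Hochberg adjustment, 78 of 78 genes passed at an adjusted p under 0.05, as did 99.5% of all 16260 genes tested. The F-test of limma also called 78 of 78 genes, beside 99.3% of all genes, and beside 99.1% in libraries with up to 10% ribosomal RNA and 98.7% in cultures of the earlier year. What varied was the share of the variance that went with strain, the broad-sense heritability H2, estimated with strain as a random effect. Its median over the 78 genes was 0.349, with a range from 0.128 to 0.876, against a median of 0.563 over all genes. An H2 above 0.5 was found for 4 of the 78 genes, or 5.13%, and for 61.3% of all genes. The study left out, strain by strain, transcripts in regions of extreme divergence. They were kept here, and their part in these values was not tested. The study also took transcripts singly, for which the family median was 0.265 here, and the value over all transcripts is not given.

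The lower H2 came with a smaller spread among strains. The SD of the strain means had a median of 0.19 over the 78 genes and 0.37 over all genes, and the SD among cultures of one strain had a median of 0.20 and 0.27. Abundant genes outside the family varied less than all genes as well. The 187 other genes with a mean level of 9 or more had a median SD among strain means of 0.23 and a median H2 of 0.486. Low values were also found in other lists of genes for protein synthesis and breakdown. Their median H2 was 0.235 for 69 genes of the mitochondrial ribosome, 0.293 for 33 of the proteasome and 0.322 for 6 elongation factors. It was 0.332 for 32 aminoacyl-tRNA synthetases, 0.355 for 35 initiation factors and 0.407 for 27 genes for ribosome biogenesis. The median SD of these lists lay between 0.111 and 0.169. The 60S and the 40S genes had nearly the same median H2, 0.3503 and 0.344. The kept cultures had been selected for closeness to their strain, which raises H2, and over all samples the median of the family was 0.296. It also depended on scaling, and was 0.145 for raw TPM without factors.

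**Figure D2:**
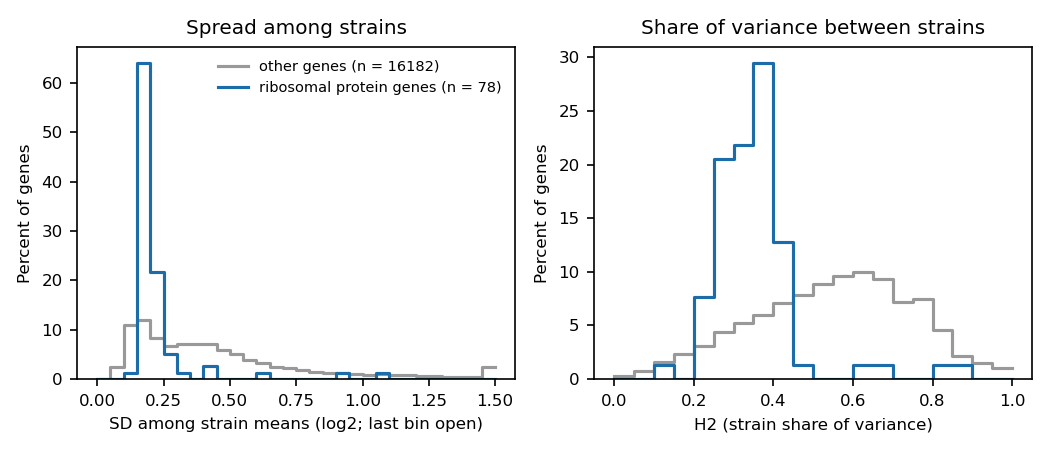
Histograms, in percent of genes, of the SD among strain means on the log2 scale (left, last bin open) and of H2 (right), for the 78 ribosomal protein genes and for all other genes tested. The family is gathered at a median SD of 0.19 and a median H2 of 0.349, with 4 genes above an H2 of 0.5.

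The 4 genes above an H2 of 0.5 were rpl-41.1 at 0.876, rpl-42 at 0.804, rpl-11.2 at 0.690 and rpl-25.1 at 0.638. The fifth was rpl-2, at 0.464, which encodes a protein next to the peptidyl transferase centre. Its cultures held 1821 and 1699 normalized TPM in QX1794, the lowest strain, and 3665, 6851 and 6961 in JU2234, the highest. These 2 strains did not overlap for rpl-2, but they were picked as its ends, so this is no test. The lowest H2 values were 0.128 for rpl-37, 0.205 for rps-17, 0.206 for rpl-41.2, 0.223 for rpl-29 and 0.230 for rpl-39.

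Several of the genes with low H2 are short, and their cultures spread widely. In JU2131, the 3 cultures held 31809, 8801 and 12571 normalized TPM of rpl-41.2, and 24194, 4697 and 5553 of rpl-29, so that 1 culture stood far above the other two. Over the 72 genes with a mean level of 9 or more and an annotated length, the 17 shorter than 450 nt had a median H2 of 0.268, the 44 from 450 to under 800 nt 0.348 and the 11 of 800 nt or longer 0.379. The correlation of H2 with log2 length was 0.489 over these 72 genes, which share all libraries. JT11398 was the highest strain for 16 genes, many of them short. Its 17 genes below 450 nt stood at a median of 0.58 above their median over strains, those from 450 to under 800 nt at 0.06 and those of 800 nt or longer at -0.29. The slope of these deviations on log2 length was -0.60, -0.02 and -1.21 in the 3 cultures of JT11398, and 2 of the 3 libraries, at 11.7% and 12.7%, exceeded 10% ribosomal RNA. The part of ribosomal RNA in this was not tested.

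The genes of the family rose and fell together across strains. The correlation of each gene with the median of the other 77 had a median of 0.901 across the 207 strain means, and 62 of 78 genes had a correlation above 0.8. It was 0.844 among cultures within strains. All genes were read in the same libraries and scaled by the same factor, and how much of this correlation comes with the library was not tested. With the factors left out, the median was 0.821, and with factors computed without the family it was 0.903. The closest to the rest were rps-18 at 0.977, rps-26 at 0.972 and rpl-7 at 0.969. The 5 with the lowest correlation were rpl-37 at 0.122, rpl-41.1 at 0.164, rpl-42 at 0.569, rpl-24.2 at 0.593 and rpl-41.2 at 0.637. Without NIC514 and NIC515, in which it was almost absent, rpl-41.1 had 0.481 over 205 strains.

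The 2 subunits kept a nearly constant proportion. Across strain means, the summed raw TPM of the 60S genes and of the 40S genes had a correlation of 0.957. It was 0.947 after the 2 strains with the most extreme 60S sums were left out. Both sums share the ribosomal RNA content of their library, and the part of this in the correlation was not tested. The log2 ratio of 60S to 40S had a mean of 0.58 and ran from 0.50 in NIC260 to 0.85 in JT11398, with an SD of 0.03 among strain means.

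**Figure D3:**
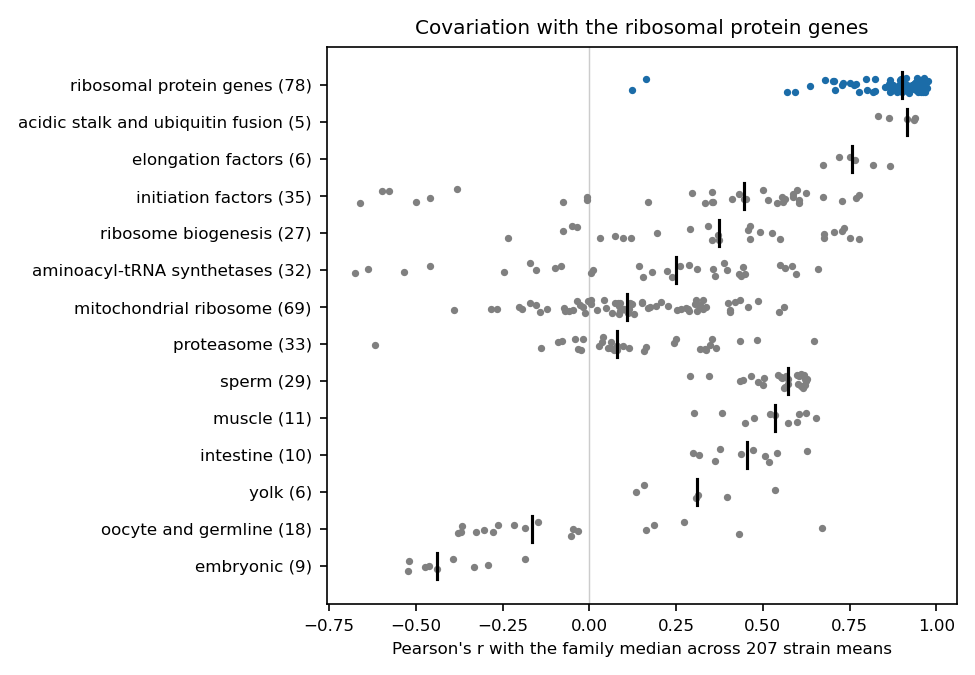
Pearson's r with the family median across 207 strain means, with 1 point per gene and a bar at the median of each list (for the 78 genes, each with the median of the other 77). The family, the stalk and ubiquitin fusion genes and the elongation factors have the highest medians (0.901, 0.916 and 0.758), and the mitochondrial ribosome and the proteasome lie near 0.

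The genes outside the family whose pattern was most like it included ribosomal proteins under other names. The 5 highest correlations with the family median were 0.937 for rla-1, a stalk protein, 0.936 for ubl-1 and 0.916 for ubq-2, which encode ribosomal proteins made as fusions to ubiquitin or a ubiquitin-like protein, 0.909 for rack-1, which encodes a protein bound to the 40S subunit, and 0.888 for C37A2.7. The next were W01D2.1 at 0.885, eef-1B.1 and F29B9.11 at 0.868 each, and the stalk gene rla-0 at 0.862. The first 5 had mean levels from 10.84 to 11.58. The list of 5 stalk and ubiquitin fusion genes had a median correlation of 0.916, and all 5 were above 0.5.

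Other parts of the translation machinery followed the family to different degrees. All 6 elongation factors measured had a correlation above 0.5, with a median of 0.758, and the highest was eef-1B.1 at 0.868, a subunit of the exchange factor that reloads the tRNA carrier with GTP. Of 35 initiation factor genes 15 were above 0.5, with a median of 0.445 and a range from -0.66 for eif-2Bepsilon to 0.78 for eif-3.G. Of 27 genes for ribosome biogenesis 9 were above 0.5, with a median of 0.374, among them nol-58 at 0.778 and nol-56 at 0.753, which encode core proteins of the particles that methylate ribosomal RNA. The 32 aminoacyl-tRNA synthetases had a median of 0.2498.

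The mitochondrial ribosome and the proteasome moved more with their own lists than with the family. The 69 genes measured for the mitochondrial ribosome had a median correlation of 0.109 with the family, against 0.623 with the median of their own list, and 2 of them were above 0.5. For the 33 proteasome genes the same values were 0.081 and 0.762. All genes outside the family had a median of 0.120, and the 187 abundant ones of 0.576, so that abundant genes in general had a higher correlation with the family than the rest.

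Marker lists of cell types were related to the family to different degrees, and some with the opposite sign. Over the 207 strains the family median had a correlation of 0.622 with the mean level of 29 of 31 sperm genes (msp- genes, major sperm proteins), 0.573 with 10 intestine genes, 0.534 with 11 muscle genes, 0.368 with 6 yolk genes, -0.127 with 18 oocyte and germline genes and -0.516 with 9 of 12 early embryonic genes. The mean level over the list ran from 1.91 to 8.87 among strains for sperm, from 5.06 to 7.03 for intestine, from 6.13 to 9.16 for muscle and from -0.61 to 0.92 for the embryonic genes. Sperm, yolk, muscle, intestine and germline markers were thus present in whole animals, as the label says, while of 5 male markers 1 was reliably expressed. With the sperm, yolk and embryonic scores regressed out, the median H2 of the family was 0.176 and that of all genes 0.445. Their part in the differences among strains was not otherwise tested.

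The 78 genes together took a mean of 23.01% of all TPM of a culture, with single cultures from 10.9% to 29.0%. The strain means ran from 16.7% in NIC513 to 26.7% in JU1440. These shares depended on the ribosomal RNA left in the libraries, which took a median of 3.36% of TPM and ran from 0.968% to 38.4%, and the correlation of the 2 shares was -0.691 over the 559 cultures. The 3 cultures of NIC513 gave 10.9%, 20.7% and 18.4% for the family beside 35.3%, 3.36% and 15.8% for ribosomal RNA. In JU2811, the next lowest strain, they gave 23%, 20.7% and 11.4% beside 4.20%, 2.22% and 38.4%.

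Within the TPM of protein-coding genes alone the correlation with ribosomal RNA was -0.128. There the family took a mean of 24.8%, with strain means from 21.8% in NIC261 to 28.5% in JU2838 and an H2 of 0.282. NIC513 remained low on this scale, 206th of 207 strains with 20.0%, 21.99% and 23.4% in its cultures, while JU2811 was 110th. The family took 9.45% of the estimated counts, because its transcripts are short.

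Of the pairs of genes with the same number, 2 have 1 copy on the X chromosome and 1 on an autosome. The protein of rpl-11 binds the smallest ribosomal RNA in the 60S subunit. In the coordinates of Ensembl WBcel235, the autosomal rpl-11.1 (V:3585312-3586064, minus strand) had a mean level of 11.40 and the X-linked rpl-11.2 (X:2241738-2242618, minus strand) of 9.43, a mean difference of 1.97 or 3.93-fold. This difference ran from 0.60 in NIC258 to 3.06 in MY2585, with an H2 of 0.700. The cultures of NIC258 held 1914, 2262 and 2132 normalized TPM of rpl-11.1, and their levels of rpl-11.2 were high, at 10.50, 10.56 and 10.25. In MY2585, the lowest strain of rpl-11.2, its levels were 8.11, 8.27 and 8.32, which is 275, 307.4 and 320.0 normalized TPM.

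The other pair behaved likewise. The X-linked rpl-25.1 (X:4715178-4715796, plus strand) had a mean level of 8.91 and the autosomal rpl-25.2 (I:8329062-8329647, minus strand) one 4.56-fold higher, and the difference had an H2 of 0.732. In MY2585 the 3 cultures held 205, 239.9 and 244 normalized TPM of rpl-25.1, and in JU2234 they held 702, 1525 and 1199. These sets did not overlap, but MY2585 was picked as the lowest strain of rpl-25.1, so this is no test.

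The X-linked copies followed each other more closely than they followed their partners. Across strain means rpl-11.2 and rpl-25.1 had a correlation of 0.949, and 0.947 after leaving out the 2 most extreme strains for rpl-11.2, while rpl-11.1 and rpl-11.2 had 0.173 and rpl-25.1 and rpl-25.2 had 0.344. The autosomal copies had 0.737 with each other. The X-minus-autosome differences of the 2 pairs had a correlation of 0.919. Summed over both copies, rpl-11 had an H2 of 0.377 and rpl-25 of 0.403, near the family median.

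The difference between X-linked and autosomal copy moved with markers of tissues. For rpl-11.1 minus rpl-11.2 the correlation across strains was -0.904 with the muscle score, -0.792 with intestine, -0.662 with sperm, 0.770 with oocyte and germline and 0.591 with embryonic genes. With yolk it was 0.166, opposite in sign to intestine. For rpl-25.1 minus rpl-25.2, where the sign is that of the X-linked copy, the correlation was 0.819 with muscle, 0.726 with intestine and 0.573 with sperm. It was -0.684 with oocyte and germline, -0.497 with embryonic genes and -0.196 with yolk, which again had the sign opposite to intestine. Other X-linked genes leaned in the same direction. Over the 71 X-linked genes outside the family with a mean level of 7 or more, the correlation with rpl-11.2 minus rpl-11.1 had a median of 0.676 and was above 0 for 71.8% of them. On the autosomes, with 151 to 191 genes each, the median lay between 0.009 and 0.319, and 50.3% to 59.6% were above 0. In the hermaphrodite germ line the X chromosome is known to be largely silenced. The part of tissue proportions in these differences was not tested further.

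Of the other pairs, those of rpl-24, rpl-7 and rpl-36 differed less among strains. The gene rpl-24.1 exceeded rpl-24.2 by 4.30 or 19.7-fold, with an H2 of the difference of 0.165. The genes rpl-7 and rpl-7A encode different proteins of the 60S subunit in spite of their names, and had levels of 11.59 and 11.28 and a correlation of 0.886. So do rpl-36 and rpl-36.A, with 12.45 and 12.12 and a correlation of 0.927. For pairs with similar sequence the estimated counts depend on how reads that match both copies were divided, and how similar the copies are was not examined.

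The pair rpl-41.1 (I:4789190-4789592) and rpl-41.2 (I:4790292-4790642) stands side by side on the plus strand, and 2 strains almost lacked the first. The 3 cultures of NIC514 had 2.06, 20.3 and 0 estimated counts of rpl-41.1, which is 0.452, 3.24 and 0 normalized TPM. Those of NIC515 had 0, 3.07 and 0 estimated counts. In the cultures of the other 205 strains the lowest was 407.9, the median 2608 and the highest 21225, so the sets did not overlap. In the same 6 cultures rpl-41.2 held 5721 to 11103 normalized TPM.

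Genes around rpl-41.1 did not share this loss. Within 20 kb, the 6 neighbours deviated from their median over strains by -0.07 to 0.22 in NIC514 and by -0.86, for zig-7, to 0.44 in NIC515. Because reads were matched to transcriptomes in which only single base variants had been replaced, an absent or diverged gene and an unexpressed gene cannot be told apart. Without these 2 strains the H2 of rpl-41.1 was 0.230 in place of 0.876, its SD among strain means was 0.26 and its correlation with rpl-41.2 was 0.891 over 205 strains.

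**Figure D4:**
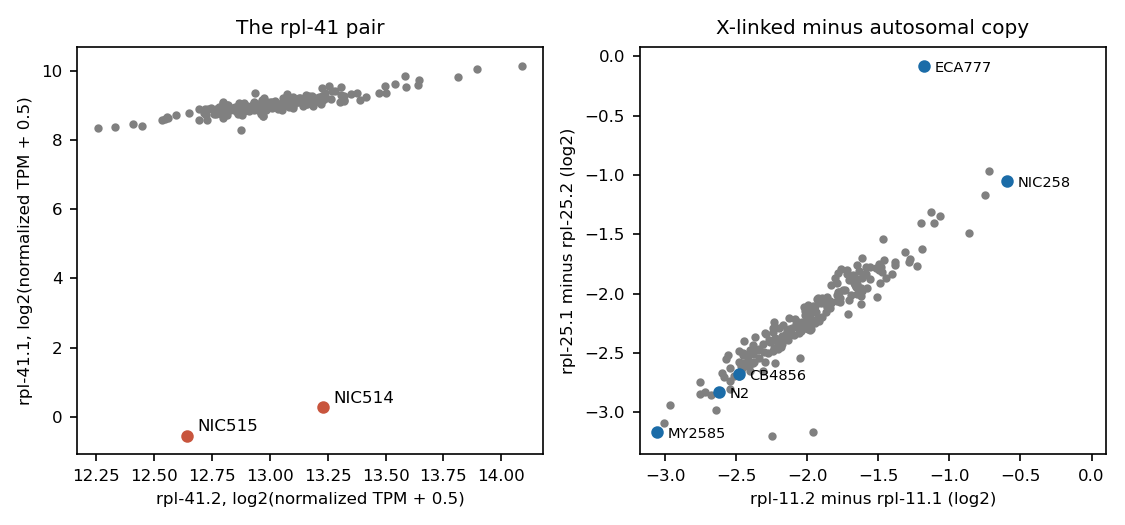
Left, strain means of rpl-41.1 against rpl-41.2, as log2 of normalized TPM plus 0.5, and right, the log2 difference of the X-linked minus the autosomal copy for rpl-25 against that for rpl-11, with 1 point for each of 207 strains. NIC514 and NIC515 fall far below the line of the other strains on the left, and on the right the differences lie along a line (correlation 0.919) from which ECA777 stands apart.

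Single genes also stood apart from the family in single strains. The next largest deviation, in units of the SD among cultures, was that of rpl-25.1 in ECA777, which exceeded the value its family median would give by 2.05. Its cultures held 1827, 2195 and 2163 normalized TPM, a mean level of 11.01, and the next highest strain mean was 10.09. Of its 7 neighbours within 20 kb, 6 were more than 0.5 above their median over strains, among them glit-1 by 4.90 and dnj-14 by 2.51. Several genes of this X-linked stretch were thus high in ECA777. The share of all genes more than 0.5 above their median in ECA777 is not given here, so this count does not set the stretch apart.

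The gene rps-3, whose protein lies at the entry of the mRNA channel, was 0.91 above its family in NIC528, with levels of 12.26 and 12.08 where the next highest strain mean was 11.71. Of 9 neighbours 4 were more than 0.5 higher. In JU2534 rpl-17, which lines the exit tunnel, was 0.87 above, with levels of 12.47, 12.20 and 12.49, and 1 of 5 neighbours was more than 0.5 higher. Chosen after their values were seen, rpl-33 was 0.86 above in ECA710 with levels of 11.97, 11.81 and 11.98, and 5 of its 10 neighbours were more than 0.5 higher. Likewise rpl-25.2 was 0.85 above in both JU2906 and JU2016, with 3 and 1 of 8 neighbours more than 0.5 higher. In JU2016 the 2 cultures were at 12.06 and 12.06. For these strains too, the share of all genes more than 0.5 above their median is not given here. Transcripts in regions of extreme divergence were kept here in all strains, and whether these genes lie in one was not examined.

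For rps-4, a protein of the 40S subunit, the transcript to which the level was assigned differed between strains. In 201 strains more than 50% of its TPM was on Y43B11AR.4.2, and in 6 strains, CB4856, ECA594, ECA812, JU2879, MY16 and MY23, it was on Y43B11AR.4.1, the one that the Ensembl annotation lists. The 3 cultures of N2 held 2787, 2421 and 2341 normalized TPM on the first and 0 on the second, and those of CB4856 held 43.0, 28.7 and 28.5 on the first and 3086, 2354 and 2271 on the second. The sum over both had a level of 11.47 ± 0.21 (SD, n = 6) in the 6 strains. In the others it was 11.58 ± 0.23 (SD, n = 201), and these sets overlapped. Reads of each strain were matched to its own transcriptome, so a changed transcript and a changed assignment of reads cannot be told apart.

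Of the other genes with the most variable transcript share, rpl-37 and rpl-42 had 1 transcript in the tables each, so that a share below 100% comes only from cultures at 0. For rps-8 the share of F42C5.8a.2 ran from 36.4% in JU2879 to 82.0% in JU323, with an H2 of 0.180. For rps-27, whose protein binds zinc, that of F56E10.4.1 ran from close to none in JU323 to 39.2% in ECA348, with an H2 of 0.0764. The spread of both shares among cultures of a strain, 11.8 and 12.5 percentage points, was larger than that among strain means, 9.19 and 8.63.

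Some of these genes are known to make a spliced form with an early stop codon, which is removed by nonsense-mediated decay and limits the amount of the protein. In *C. elegans* this was described for rpl-1, rpl-3, rpl-7A and rpl-12. The annotation gives a transcript of biotype ncRNA for 3 of these, and their median was 51.4 TPM for JC8.3b of rpl-12, 10.8 TPM for F13B10.2b of rpl-3, and 54.3 and 8.02 TPM for Y71F9AL.13d and Y71F9AL.13c of rpl-1. For rpl-7A, 2 transcripts were listed and neither was of that kind. Also present were Y106G6H.3b of rpl-30 at 216 TPM and C27A2.2b of rpl-22 at 20.0 TPM. The noncoding forms took 2.24% of the TPM of rpl-12, 0.342% of rpl-3 and 8.37% of rpl-30 on average. Their correlation with the rest of their gene across strain means was 0.591 for rpl-12, 0.695 for rpl-3, 0.214 and 0.433 for the pair of rpl-1, 0.5003 for rpl-30 and 0.588 for rpl-22.

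Cultures labelled with the later year had slightly more of the family than cultures of the same strain labelled with the earlier. With strain in the model, limma called 48 of the 78 genes higher and 2 lower in the later year at an adjusted p under 0.05, and 28 did not pass. Of all genes, 15.3% were called higher and 33.8% lower, or 49.1% in either direction, so that the direction of the family was the opposite of that of most called genes. The median difference was 0.06 for the family and -0.04 for all genes. The rise was not particular to the family. Of the 187 other genes with a mean level of 9 or more, 76 were called higher and 16 lower. Among 33 proteasome genes these counts were 29 and 1, and among 69 of the mitochondrial ribosome 34 and 10. Among 27 genes for ribosome biogenesis they were 4 and 11. By subunit, 24 of 47 60S genes and 24 of 31 40S genes rose. Year is known only through the sequencing pools, so that year and pool cannot be told apart, and libraries of one pool share their handling, so these p-values may be too small. The 7 pools of 54 to 93 cultures had median shares of coding TPM between 22.9% and 25.8%.

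The largest rises were in rps-16, whose protein reaches the site of the peptidyl-tRNA, by 0.19 ± 0.02 (SE; limma adjusted p = 1.0e-13), in rpl-41.1 by 0.19 ± 0.04 and in rps-25 by 0.19 ± 0.03. In 122 strains cultures of both years were kept, and they carry these estimates. The falls were those of the 2 genes with few counts, rpl-37 by -0.51 ± 0.09 and rpl-42 by -0.16 ± 0.06 (limma adjusted p = 0.017), while rpl-25.1, at -0.04 ± 0.03, did not pass. Leaving out replicate 3 of each strain with 3 cultures left 31 strains with both years and 21 calls, all higher, while 3.7% of all genes were called higher and 5.29% lower. The calls of rpl-37 and rpl-42 were lost without replicate 1, with differences of -0.20 and -0.10, and without replicate 3, with -0.24 and -0.0085, where that of rpl-41.1, at 0.12, was lost too. The call of rpl-42 was also lost with a pseudocount of 0.1 and with CPM in place of TPM.

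**Figure D5:**
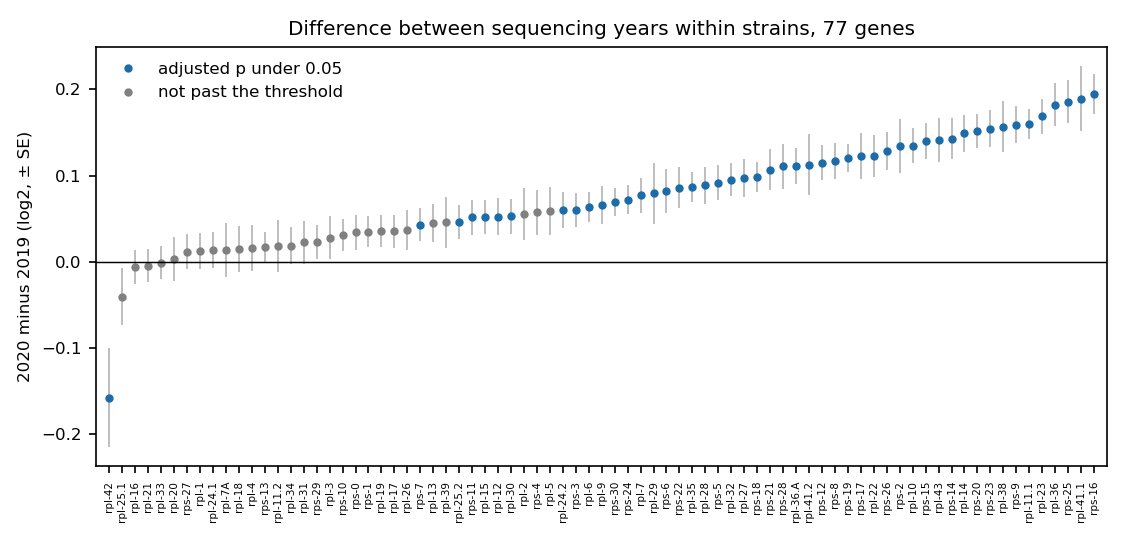
Difference between years within strains, later minus earlier year on the log2 scale with its SE, for 77 of the 78 genes in order of size, coloured by whether the limma adjusted p was under 0.05 (rpl-37, at -0.51, is off the scale and not drawn). The 48 genes called higher lie above 0, and rpl-42, at -0.16, is the one drawn gene called lower.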

How the data were processed

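The deposited files hold 2 values per transcript and sample, the estimated count and the TPM, neither normalized between samples. Per the submitters' processing notes and the study's methods, the authors trimmed reads with fastp 0.20.0 and pseudoaligned them with kallisto 0.44.0 to strain-specific transcriptomes with substituted single nucleotide variants (WS276).

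The 65330 table rows (transcripts and transposable elements) were joined to Ensembl WBcel235 genes, 58525 by identifier and 6633 by sequence name. The members have 163 transcript rows, 46 joined by sequence name, and all rows of a gene were summed. A transcript was reliably expressed with at least 5 normalized counts in all cultures of at least 10 strains. The study's distance rule, applied to variance-stabilized values (DESeq2 1.42.0), kept 559 samples. A strain with 1 sample was left out. Labels give strain, pool and year but no replicate numbers, which follow accession order. Replicates are separate cultures.

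TPM was divided by factors and taken as log2(normalized TPM + 0.5). H2 is from restricted maximum likelihood with strain as random effect. Rounded estimated counts were tested among strains with edgeR 4.0.16 (quasi-likelihood F-test, TMM, dispersion trend on 400 seeded genes), and years with limma 3.58.1 and strain as fixed effect, with Benjamini-Hochberg adjustment over 16260 genes, both in R 4.3.3. Scripts in Python 3.11.15 used numpy 2.4.6, pandas 2.3.3 and matplotlib 3.10.9. Both tests were tested on simulated data. Relatedness among strains was not modelled. Depth is the total of estimated counts given above, and reads are not independent molecules.

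Members and lists were chosen with earlier results of these data known. Named members are the 5 highest and lowest by level and by H2, the 5 with the largest SD and with the lowest correlation, pairs of like names, genes with a known unproductive splice form, the 5 most variable transcript shares, the 3 largest rises and falls between years and the 5 largest deviations in one strain.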

Additional observations from a re-analysis of the deposited data

Results flagged for a closer look

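Strain JU2800 has a single sample and stood outside every comparison, and it is given here because it is a signal in data that the comparisons did not use. Its culture had 78 of 78 genes with at least 3 estimated counts. The family took 23.39% of its TPM and 24.70% of the TPM of protein-coding genes, beside 3.025% in ribosomal RNA. Without a second culture there is no spread to set these values against.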

How the results depend on the processing

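The strain test called 78 genes under 9 alternatives, among them all samples without selection, DESeq2 size factors, no filter on low counts (84.9% of all genes called) and limma, and 77 without replicate 1, 2 or 3 of the strains with 3 cultures, losing rps-23, rpl-15 and rpl-37 in turn. The median H2 of 0.349 was 0.296 with all samples, 0.145 with raw TPM without factors, 0.252 with CPM, 0.176 with scores regressed out and 0.265 with transcripts taken singly, and 0.280 to 0.382 leaving out a replicate. The median correlation of 0.901 was 0.890 with all samples, 0.821 with raw TPM, 0.913 with the pool regressed out, 0.837 with scores regressed out, 0.928 in libraries up to 10% ribosomal RNA, 0.895 in cultures of the earlier year and 0.895 to 0.902 leaving out a replicate. The family's share of 23.01% was 9.45% of estimated counts. The 50 genes called between years (49.1% of all genes) were 39, 46 and 21 without replicates 1, 2 and 3 (31.3%, 39.5% and 8.99% of all genes), and 37 with raw TPM, 31 higher and 6 lower, beside 5.6% of all genes higher and 49.8% lower. With all samples 47 were called, beside 11.5% of all genes higher and 10.5% lower. The difference of rpl-42 between years turned to 0.0496 with all samples, and lost its call with a pseudocount of 0.1 (-0.1925) and with CPM (-0.1819). The causes were not tested. Summing only reliably expressed transcripts, the limit on ribosomal RNA and cultures of the earlier year alone were chosen after seeing the data. No paired analysis was possible because the labels give no replicate numbers that pair cultures across strains. The years were compared within strains. Counts near 0 limit rpl-37, rpl-42 and rpl-41.1 in 2 strains.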
